A study of Mus musculus with 2 samples.

Results

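The proteins of the mitochondrial ribosome are made from nuclear genes, most of which carry the symbols Mrpl (large subunit) and Mrps (small subunit). The genes described here are the protein-coding genes whose symbol is Mrpl or Mrps followed by a number and, at most, one letter. This gave 78 of the 55536 genes in the gene tables, or 78 of 22015 nuclear protein-coding genes, and all 78 had counts in both libraries. Total RNA came from adrenal glands of 36-day-old male mice of the hybrid B6CASTF1/J, a cross of C57BL/6J with CAST/EiJ, with no treatment or engineered allele named in the labels. Both libraries were made from 300 ng of RNA after removal of ribosomal RNA, with ERCC spike-in RNA added. They form 1 group of 2 biological replicates, so the data give the level of each gene in this tissue and the spread between 2 libraries, and hold no contrast between conditions. The labels disagree on whether both libraries come from the same animal, and p-values below measure only the difference between these 2 libraries.

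The mitochondrial ribosome makes the few membrane proteins of oxidative phosphorylation that mitochondrial DNA encodes. Its RNAs come from mitochondrial DNA, while every one of its proteins is imported from the cytosol, so its assembly joins products of both genomes. Many of the proteins descend from those of the bacterial ribosome, and others exist only in mitochondria. In the adrenal cortex, mitochondria also house the first and last steps of steroid hormone synthesis.

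Expected counts in the gene tables totalled 35813366 (replicate 1) and 30628771 (replicate 2). Defining genes of the labelled tissue were high in both: the 6 adrenal cortex markers summed to 14620 and 8127 TPM (transcript abundance scaled to a fixed sum) and the 5 chromaffin cell markers to 1427 and 1671 TPM. All 6 cortex markers were lower in replicate 2 (median log2 ratio -0.42), of which Nr5a1, a factor that drives steroid synthesis genes, was called at 15841 and 5709 counts. All 5 chromaffin markers were higher (median 0.52), with none called. Their direction depends on the scaling: deposited TPM was lower in replicate 2 for Th (210 and 184) and Pnmt (175 and 173). With library sizes set by the spike-ins, which lowers every log2 ratio by 0.89, only Chgb (0.99 before) stays higher. Replicate 2 stood apart in RNA of another organ. The 6 pancreas markers, among them Ctrb1, Pnlip and Ins2, summed to 0.21 TPM in replicate 1 and 6606 TPM in replicate 2, and all 6 were called higher in replicate 2 by the test described below. The 6 liver markers summed to 13.9 and 107 TPM, and all 6 were likewise called. In bulk RNA, fewer cells of a type and less RNA per cell cannot be told apart. The part of these differences in the ratios of the mitochondrial ribosomal protein genes was not tested.

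The median of the 78 genes was 25.5 TPM in replicate 1 and 18.4 TPM in replicate 2. Among nuclear protein-coding genes at 1 TPM or more, 79.4% and 79.5% lay below these medians. By mean over the 2 libraries, 66 members lay between 10 and 40 TPM, 5 lay below 10 TPM and 7 at or above 40 TPM. No member was under 1 TPM in either library. The cytosolic ribosomal protein genes, for scale, had a median of 215 TPM over 79 genes, and the subunits of complex I of the respiratory chain, which the mitochondrial ribosome helps to build, had 83.5 TPM over 36 genes.

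The deposited TPM was higher in replicate 1 for 77 of the 78 members, Mrpl34 being the exception. TPM is scaled over every entry of a table, and nuclear protein-coding genes summed to 310489 TPM in replicate 1 and 232397 TPM in replicate 2. Rescaled so that nuclear protein-coding genes alone sum to the full TPM scale, the median of members was 82.2 in replicate 1 and 79.2 in replicate 2, and 45 of 78 were higher in replicate 1. The members together took 0.690% and 0.685% of nuclear protein-coding TPM. On this scale the members no longer lay to one side.

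**Figure D1:**
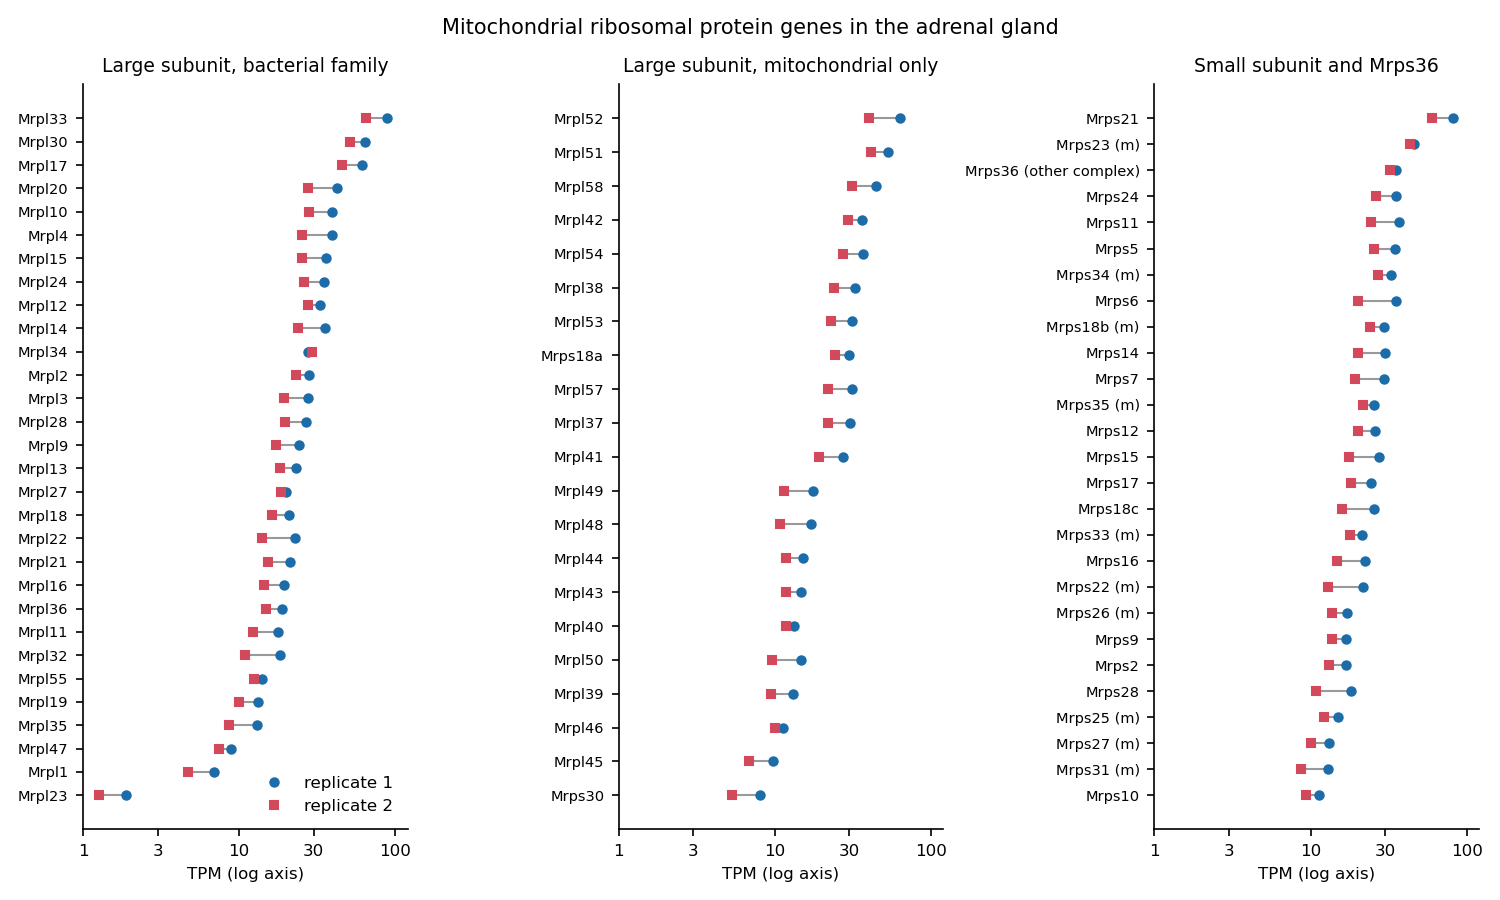
Deposited TPM (log axis) of each of the 78 genes in replicate 1 (circles) and replicate 2 (squares), in order of the mean within each panel; (m) marks small subunit proteins found only in mitochondria. Most genes sit between 10 and 40 TPM, and Mrpl23 sits below all others at 1.88 and 1.27 TPM.

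The highest levels were found in both subunits. Mrpl33, a large subunit protein of a bacterial family, led with 88.2 TPM in replicate 1 and 65.0 TPM in replicate 2. Mrps21, the highest small subunit gene, had 82.0 and 60.3 TPM. Mrpl30 had 63.6 and 51.6 TPM. These 3 and Mrpl17, at 61.1 and 45.5 TPM, are all of bacterial families. Next came 3 large subunit proteins found only in mitochondria. Mrpl52 had 63.8 and 40.2 TPM. Mrpl51 had 53.3 and 41.4 TPM. Mrpl58, which releases unfinished chains from stalled ribosomes, had 44.4 and 31.2 TPM. Between the last 2 in rank stood Mrps23, a mitochondrial small subunit protein, at 45.7 and 43.6 TPM. Deposited TPM ranges of neighbours in this order overlapped, but part of each range is the difference in scale between the libraries given above. Rescaled over nuclear protein-coding genes, Mrpl33 had 284 and 280, Mrps21 264 and 259, Mrpl30 205 and 222, and Mrpl17 197 and 196. These ranges did not overlap, while that of Mrpl52 (205 and 173) took in that of Mrpl17.

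At the other end, Mrpl23 had 1.88 and 1.27 TPM, far below the next member. Mrpl1 followed with 6.87 and 4.71 TPM. Mrps30 had 8.06 and 5.30 TPM, although its protein sits in the large subunit despite its name. Mrpl47 and Mrpl45, both near the exit of the peptide tunnel, had 8.93 and 7.41 TPM and 9.76 and 6.87 TPM. The other members among the 8 lowest were Mrps10 with 11.3 and 9.37 TPM, Mrpl46 with 11.2 and 10.1 TPM, and Mrpl35 with 13.0 and 8.64 TPM. The SD of log2 TPM over the 78 members was 0.86, and it was 0.75 without Mrpl23.

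The 2 subunits were at like levels. The 51 large subunit members had median TPM of 24.3 and 18.4, against 25.5 and 18.1 for the 26 small subunit members. The ratio of these medians, large over small, was 0.99 over the 2 libraries, and 0.95 and 1.02 within replicates 1 and 2. By origin, the median of the mean TPM was 22.7 for the 16 small subunit proteins of bacterial families and 18.5 for the 10 found only in mitochondria. In the large subunit it was 20.8 for the 30 of bacterial families and 23.3 for the 21 found only in mitochondria. These medians differ by less than the spread of members within any class.

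Proteins that sit together in the ribosome did not share one level. The stalk and its base, which bind the translation factors, hold Mrpl10 (39.5 and 28.1 TPM), Mrpl11 (17.9 and 12.4 TPM) and Mrpl12 (33.2 and 27.6 TPM). At the rim of the exit tunnel, where the new chain leaves toward the inner membrane, Mrpl24 had 35.1 and 25.9 TPM and Mrpl22 had 22.7 and 14.0 TPM. Mrpl45, which anchors the ribosome to that membrane, Mrpl47 and Mrpl23 are the other 3 of this site. All 3 lie among the 5 lowest members in the gene table, where the rank of Mrpl23 depends on a pseudogene described below. The median of the site was 8.3 TPM there, against 21.9 TPM over all members. In the second transcript file, a separate estimate from the same reads, the rescaled median of the site was 93.7, against 81.0 over all members. The 6 proteins of the central protuberance, the top of the large subunit that faces the small one, ranged from 10.7 TPM for Mrpl46 to 28.3 TPM for Mrpl38 by mean.

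The 3 Mrps18 genes encode related proteins, of which Mrps18a and Mrps18b are counted above among those found only in mitochondria and Mrps18c among the bacterial families. Mrps18b and Mrps18c proteins sit in the small subunit and that of Mrps18a in the large one. In the gene table Mrps18a had 29.9 and 24.2 TPM, Mrps18b 29.5 and 24.0 TPM and Mrps18c 25.5 and 16.0 TPM. There the Mrps18a and Mrps18b levels did not differ beyond their spread, and Mrps18c was lower in both libraries. In the second transcript file, rescaled, Mrps18a had 91.0 and 99.9, Mrps18b 103 and 106 and Mrps18c 91.4 and 70.0. Mrps18c was thus not below Mrps18a in replicate 1 of that file. Mrps36, despite its symbol, encodes a part of the 2-oxoglutarate dehydrogenase complex of the citric acid cycle. It had 35.1 and 32.4 TPM, within the range of the ribosomal members.

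Shorter members had higher TPM. The 39 members with the shorter transcripts had a median of 27.7 TPM by mean, and the 39 longer had 15.1 TPM. Over the 78 members, Spearman's rho of mean TPM with transcript length was -0.64, and that of TPM in the second transcript file with length was -0.66. Over the 13256 nuclear protein-coding genes tested it was -0.23. These are correlations across genes of the same 2 libraries, given as descriptions. Members are short: the median length was 969 bases against 2477 bases for those 13256 genes, and TPM divides by length.

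The lowest member, Mrpl23, is a case where the level depends on which of 2 gene copies receives the reads. Mrpl23 (chr7:142532686-142540747, plus strand, mm10) is a large subunit protein at the tunnel exit. Mrpl23-ps1 (chr2:74591330-74591909, minus strand) is annotated as a processed pseudogene, a copy of a spliced messenger RNA set back into the genome. The 438-base coding sequence of the transcript Mrpl23-201 occurs whole in the pseudogene, with 438 of 438 bases identical and no gap. In the gene it is spread over 5 exons, and in the pseudogene it lies in 1. Its first 240 bases, the same in both transcripts of GENCODE M21, are shown 5′ to 3′. By these annotated sequences, no read that lies within the 240 bases can tell the copies apart. The CAST/EiJ sequences of the 2 copies were not examined. The capitals mark the 4 bases on each side of the first 3 exon junctions of the gene.

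Mrpl23 and Mrpl23-ps1: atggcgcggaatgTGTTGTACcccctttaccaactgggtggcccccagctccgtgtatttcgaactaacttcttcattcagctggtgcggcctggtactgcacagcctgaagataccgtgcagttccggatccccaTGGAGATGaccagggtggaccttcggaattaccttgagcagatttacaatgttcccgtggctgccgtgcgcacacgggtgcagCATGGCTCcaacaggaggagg

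In the gene table, Mrpl23 held 66.9 counts in replicate 1 and 68.1 in replicate 2, while the pseudogene held 427 and 338. In the second transcript file, a separate estimate from the same reads, Mrpl23 held 530 and 452 counts and the pseudogene 0 and 0. The 2 gene table entries together summed to 494 and 406 counts, of which Mrpl23 itself had 13.5% and 16.8%. Their summed TPM was 27.0 and 19.4, which would place Mrpl23 at rank 37 and 36 of 78 in the 2 libraries, in the middle of the family instead of last. How many of these reads come from each copy was not tested.

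**Figure D2:**
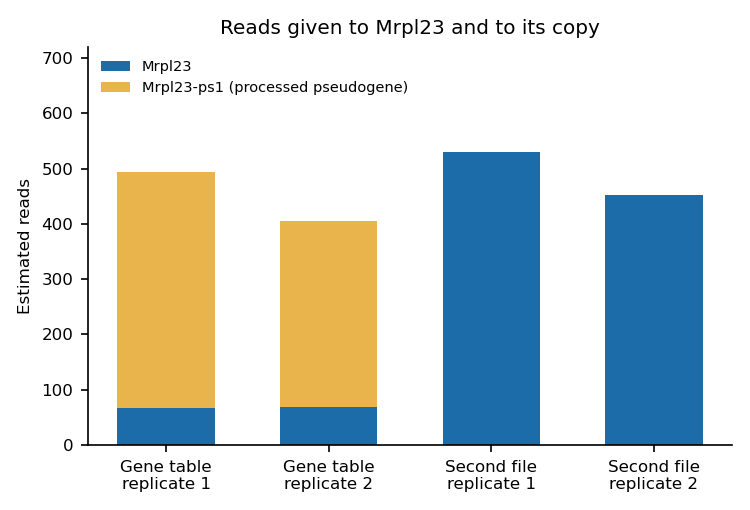
Estimated reads (bars from 0) given to Mrpl23 and to its processed pseudogene in each library, in the gene table and in the second transcript file. The gene table gives most reads to the pseudogene (427 and 338 against 66.9 and 68.1), and the second file gives all of them to Mrpl23 (530 and 452).

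Copies of other members took far fewer reads. Of the coding transcript of each member that was most abundant in the second file, all stretches of 31 bases were looked up in all other annotated transcripts. For 35 members none was shared with another gene. Among the 3 genes that shared most with each member, the only ones kept, 27 pseudogenes shared at least 5%, with 21 members in all. Of these 27, only 5 held 10 or more counts in both libraries in the gene table, Mrpl23-ps1 included, and 1 did in the second file. Mrpl48-ps took 74.4 and 55.8 counts beside 665 and 493 for Mrpl48, with 489 of 499 aligned bases identical. AC154457.3 took 59.4 and 30.8 counts beside 485 and 443 for Mrps10, with 561 of 570 bases identical, and it was the one that also held counts in the second file, 51.0 and 30.4. Gm13328 took 68.6 and 40.7 counts beside 977 and 839 for Mrps5, with 1003 of 1019 aligned columns identical. Gm5776 took 47.1 and 18.2 counts beside 555 and 504 for Mrps33, with only 205 of 321 aligned columns identical and 116 in gaps. For these 4 members the copy held at most 10.9% of the summed counts in either library.

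By the same count, overlapping genes shared at least 5% of the stretches with 4 members. The coding transcript of Mrpl53 lies whole within Gm42688, an annotated protein-coding gene that spans it. Gm42688 had 195 and 303 counts in the gene table and 510 and 556 in the second file, beside 657 and 535 for Mrpl53 in the gene table and 466 and 362 in the second file. The log2 ratio between libraries was -0.01 for Mrpl53 and 0.26 for the 2 genes pooled. Mrps6 shares 33.8% of its stretches with Gm49711 and 15.8% with Slc5a3, a solute carrier gene whose transcripts overlap it and which had 4877 and 3420 counts. Mrpl33 shares 33.3% with Gm43809, which had 2.81 and 8.54 counts, and Mrps18c shares 19.1% with Gm43511, which had fewer than 30 counts in each library. Values of these members are uncertain to the extent that reads could be split.

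Apart from Mrpl23, the second file gave much the same order of levels. After both were rescaled over nuclear protein-coding genes, Spearman's rho across the 78 members was 0.87, and 0.90 without Mrpl23, given as a description of 2 estimates from the same reads. The log2 difference, second file over gene table, was within 0.5 of its median of -0.04 for 70 members. The 5 that differed most were Mrpl23 (4.02), Mrpl17 (-1.06), Mrpl27 (0.93), Mrpl22 (0.59) and Mrpl3 (0.58). Mrpl17, rank 4 in the gene table, was rank 30 in the second file, and Mrpl27, a central protuberance protein with 19.8 and 18.4 TPM in the gene table, moved from rank 45 to rank 11.

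**Figure D3:**
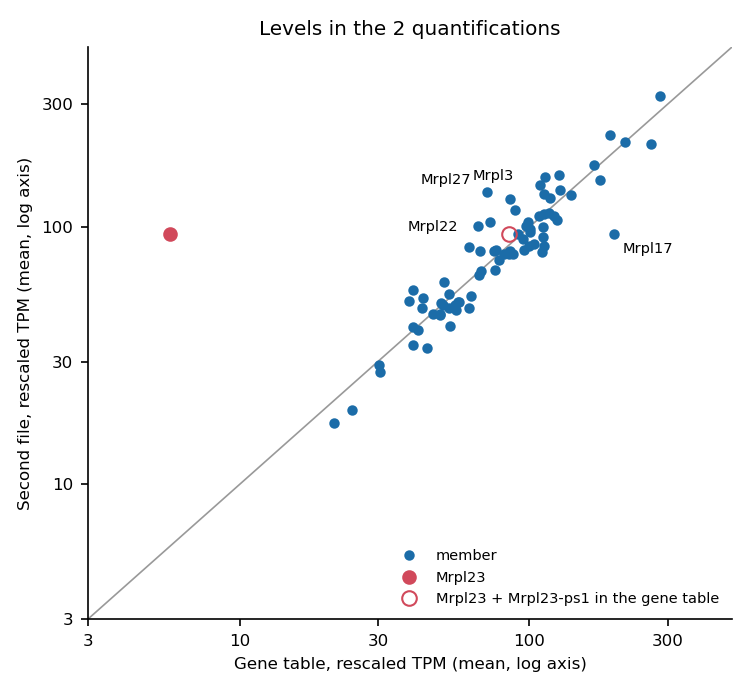
Mean level of each member in the gene table (x) and in the second transcript file (y), both as TPM rescaled over nuclear protein-coding genes, on log axes; the line marks equal values. Mrpl23 (filled red) lies 4.02 log2 units above the line, and the open circle shows it with the pseudogene's TPM added on the x axis.

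Between the libraries, the members had ratios close to 1. Each gene with a mean CPM (reads of the gene scaled to a fixed library total) of 1 or more was compared by an exact binomial test (two-sided) of its 2 counts after scaling the library sizes, with Benjamini-Hochberg adjustment over all 14780 genes tested, and all 78 members passed this filter. A gene was called when the adjusted p was under 0.05 and the fold was 2 or more. None of the 78 members was called, against 6.86% of all genes tested in either direction. None passed at a fold of 1.5, where 16.5% of genes did. At an adjusted p under 0.05 with any fold, 22 members passed, or 28.2%, against 54.2% of all genes. At an unadjusted p under 0.05, 28 members passed, or 35.9%, against 58.4% of all genes. The edgeR exact test with a fixed biological coefficient of variation of 0.1 also called 0 members and 980 genes in all.

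The median log2 ratio, replicate 2 over replicate 1, was -0.01 over the members and 0.01 over all genes tested, and 37 members had the higher scaled count in replicate 2 and 41 in replicate 1. The ratios of members ran from -0.39 to 0.51. Their interquartile range was 0.25, against 0.49 over all genes tested. Depth differs between these sets, so the same was computed for the 11093 genes whose mean CPM reached 5, which include 77 members. The interquartile range there was 0.23 for members and 0.39 for all. The SD of the members' ratios was 0.17, and the counting error of a single member had a root mean square of 0.08. Large and small subunit members had the same median, -0.01 in each case.

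**Figure D4:**
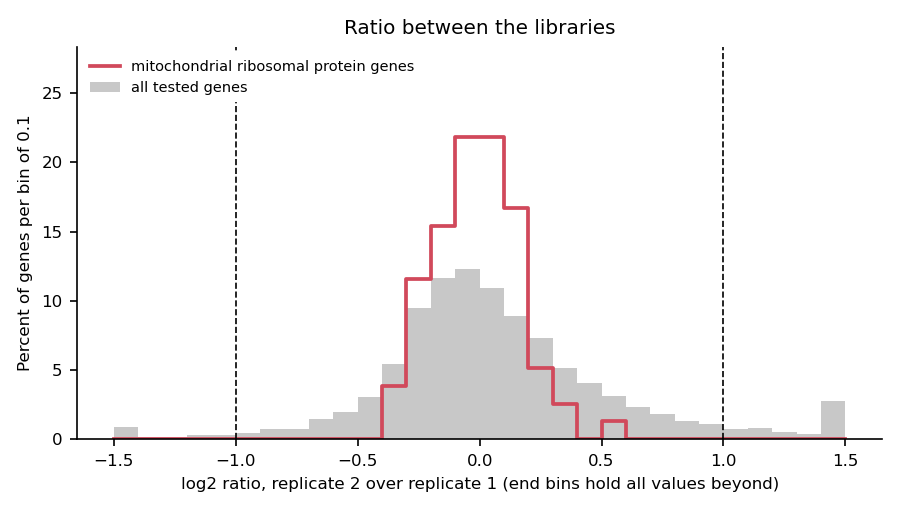
Percent of genes in each bin of the log2 ratio between libraries (replicate 2 over replicate 1), for all 14780 tested genes (grey bars) and the 78 members (red line); dashed lines mark the fold of 2 used for calls. All members lie between -0.39 and 0.51, well inside the lines.

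The 5 members furthest toward replicate 2 did not all belong to the same site, and Mrps36 among them is not counted as part of the ribosome. Mrpl34, a short large subunit protein of a bacterial family, had 498 counts in replicate 1 and 582 in replicate 2, a fold of 1.43 (95% interval 1.26 to 1.61) with an exact binomial adjusted p of 3.42e-08. Mrpl23 followed with a log2 ratio of 0.31 on its few counts, and 0.01 when pooled with its pseudogene. Mrps36, the dehydrogenase component, had 712 and 718 counts and a log2 ratio of 0.30. Mrpl27 (449 and 444 counts) and Mrpl40 (382 and 377 counts), both of the central protuberance, each had 0.27. Of the 6 central protuberance members, 5 were higher in replicate 2, with a median log2 ratio of 0.15, and none was called.

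Toward replicate 1, Mrps6 had 954 and 594 counts, a fold of 1.31 (95% interval 1.19 to 1.46) with an exact binomial adjusted p of 6.47e-07; this is the member that shares stretches with Slc5a3. Mrps28 had 442 and 288 counts and a log2 ratio of -0.33. Mrps22, whose gene is mutated in an inherited disorder of mitochondrial translation, had 865 and 566 counts and -0.32. Mrpl32 (578 and 396 counts) had -0.26, and Mrpl22 (489 and 336 counts) had -0.25. The second file gave the same sign of the ratio for 67 of the 78 members and a median of -0.06. With library sizes set by the spike-ins, the direction changed for the 5 members named as highest: all 78 members were then lower in replicate 2, with a median of -0.90, beside -0.88 for all genes tested, and 24 members were called, against 37.3% of all genes.

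The annotated transcripts of the members were unevenly used. The 78 genes have 343 transcripts in GENCODE M21, of which 170 are protein coding, 88 retain an intron, 24 are marked for nonsense-mediated decay and 61 are processed transcripts with no reading frame annotated. Protein-coding transcripts took 75.9% of the members' TPM in both libraries, and 72.4% and 71.0% in the second file. Retained-intron transcripts took 9.30% and 10.1%, those marked for decay 6.42% in replicate 1 and 6.20% in replicate 2, and processed transcripts 8.33% and 7.82%. The leading transcript of a member held a median of 85.1% of its TPM, it held over 90% in 35 members and under 50% in 9, and it was the same transcript in both estimates for 56 members.

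In 17 members the leading transcript was not annotated as protein coding, and in 13 of them this was so in both estimates. It was a retained-intron transcript in 5, one marked for decay in 6 and a processed transcript in 6. Mrps26 was the clearest: Mrps26-201, with an intron retained, held 95.3% and 96.6% of the gene's TPM, and its protein-coding transcripts 4.75% and 3.43%. Mrpl57-202, also with an intron retained, held 92.1% and 93.4%. Mrps16-202, a processed transcript, held 94.1% and 93.3%. Mrpl32-201, marked for decay, held 79.5% and 80.9%. These 4 held over 75% in the second file too. They are short, at 1057, 519, 801 and 658 bases in the order named. The coding transcripts searched above for these genes are longer, with 4248, 2847, 2542 and 2983 different stretches of 31 bases. TPM divides by length, so beside a longer transcript a short one has a smaller share of reads than of TPM.

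The remaining members of this kind with the same leader in both estimates were Mrpl15, Mrpl35, Mrpl47, Mrpl51, Mrps24 and Mrps25. Mrpl51-202, a processed transcript of one of the most abundant members, held 63.2% and 63.8% in the first table and 92.7% and 93.4% in the second file. Mrpl35-202, marked for decay, held 66.5% and 68.9%. Mrpl3, Mrpl19 and Mrps35 had a non-coding leader in both estimates but a different one. Mrps24-201 held 78.2% and 73.0%, and Mrps25-201 held 65.6% and 63.0%, both with an intron retained. Mrpl15-202 and Mrpl47-202, both processed transcripts, held 53.4% and 55.7% and 51.1% and 57.6%.

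The estimates disagreed for the last 4. Mrps14-201, marked for decay, held 93.3% and 91.2% of Mrps14 in the first table, while Mrps14-202, a protein-coding transcript, held 91.6% and 86.4% in the second file. Mrps11-205, marked for decay, held 55.4% and 72.6%, against 94.4% and 71.8% for the coding Mrps11-201 in the second file. Mrpl13 and Mrpl23 also had a coding leader only in the second file. The Mrpl23 shares in the first table rest on the 66.9 and 68.1 counts left beside the 427 and 338 of its pseudogene. The part of that split in the Mrpl23 shares was not tested. The reverse, a coding leader only in the first table, was found for Mrpl17, Mrps5 and Mrps7. Mrpl17-203, marked for decay, held 84.9% and 85.7% of its gene in the second file. Mrps5-206, with an intron retained, held 54.9% and 59.8% there, and Mrps7-202, a processed transcript, 53.5% and 46.2%. Transcripts of a gene share most of their bases, so these shares rest on few reads that tell them apart.

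**Figure D5:**
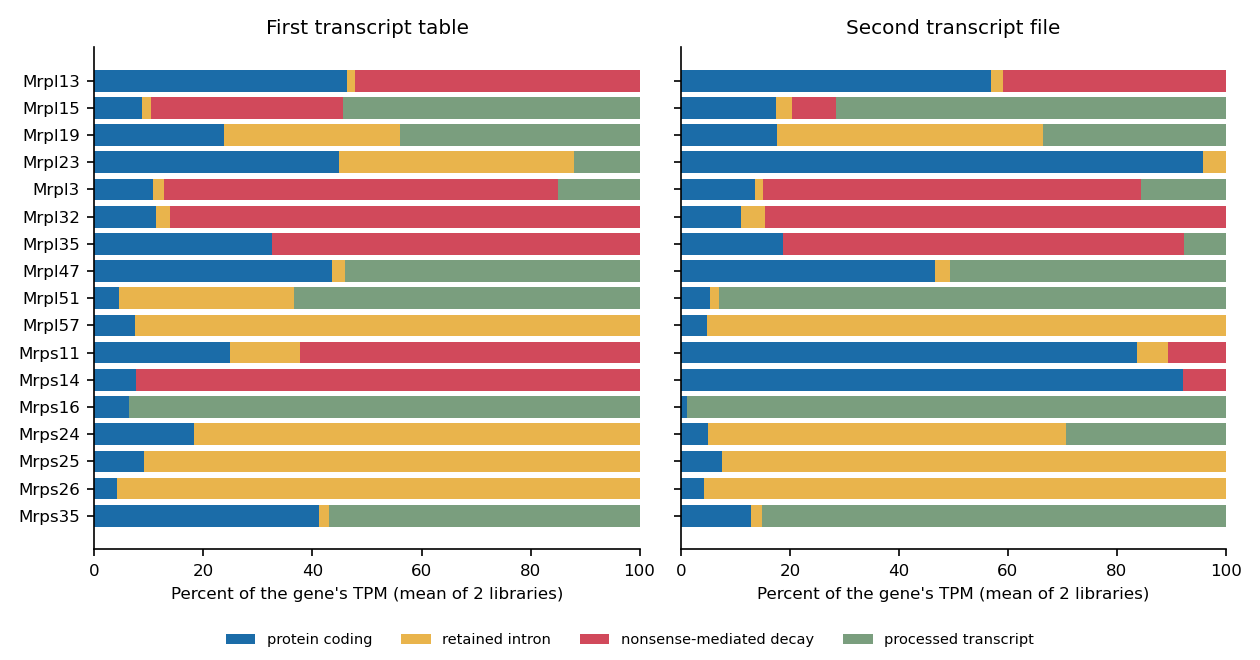
Share of the gene's TPM (percent, mean of the 2 libraries) in each annotated transcript class, for the 17 members whose leading transcript in the first table is not protein coding, in the first transcript table (left) and the second transcript file (right). Mrps14, Mrps11 and Mrpl23 change most between the panels; Mrps26, Mrpl57 and Mrps16 are alike in both.

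Many members start beside a gene that runs the other way. Within 1000 bases of the annotated start, 37 of 78 members (47.4%) had the start of a gene on the opposite strand, against 23.5% of the 13256 nuclear protein-coding genes tested. For a protein-coding neighbour the shares were 42.3% and 15.2%. One such pair is made of 2 members, Mrps11 and Mrpl46, whose starts on chromosome 7 lie 412 bases apart with overlapping ends. Mrps11 had 36.7 and 24.4 TPM and Mrpl46 had 11.2 and 10.1 TPM, and their log2 ratios between libraries were -0.24 and 0.26, the second turning to -0.63 with spike-in scaling. This pair did not share a level in either library.

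The neighbours named here were chosen for their known roles after their values were seen. Mrpl36 starts 29 bases from Ndufs6 and Mrpl47 starts 615 bases from Ndufb5, both genes of complex I subunits, which had mean TPM of 73.0 and 99.2 beside 16.8 and 8.17 for the members. Mrps12 starts 172 bases from Sars2, the mitochondrial seryl-tRNA synthetase (4.74 TPM). Mrpl43 starts 779 bases from Twnk, the helicase of mitochondrial DNA (8.54 TPM). Mrps27 starts 81 bases from Ptcd2, which encodes a mitochondrial RNA-binding protein, and Mrpl49 starts 59 bases from Fau, which encodes a cytosolic ribosomal protein and had 272 TPM. Of the 37 neighbours, 9 had a mean TPM within 2-fold of their member, 23 were at least 2-fold lower and 5 at least 2-fold higher.

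Start regions were searched for short motifs in RefSeq windows on GRCm38.p6, from 250 bases before to 50 bases after each start, on both strands. Windows were found for 69 members and for 10320 of the tested nuclear protein-coding genes. The ETS family core CCGGAAG, read by GABP among others, occurred in 26 of 69 members (37.7%) and in 19.3% of all those genes. GCGCATGCG, the site of NRF1, a regulator of many nuclear genes for mitochondria, occurred in 7 members (10.1%) and 4.03% of all. AAGATGGCG, a form of the YY1 site, occurred in 8 members (11.6%) and 3.47% of all. GGGCGG, bound by the SP and KLF family, occurred in 49.3% of members and 68.8% of all, while the median GC content of the windows was 58.7% and 60.7%.

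The shares of the other motifs were counted the same way. CCAAT occurred in 39.1% of members and 42.8% of all genes with a window, CACGTG in 7.25% and 11.4%, TATAAA in 7.25% and 8.92%, ACTACAA in 7.25% and 4.78%, and TGACGTCA in 2.90% and 3.55%. CAAGGTCA, the site of the steroidogenic factor Nr5a1 and of estrogen-related receptors, occurred in 2 members, Mrps15 and Mrps21 (2.90%), and in 1.35% of all. No motif holds another of this set whole; the NRF1 letters overlap their own reverse complement, and a window was counted once. A match is a description of letters and shows no binding. Mrpl22 is printed as an example because its window holds both NRF1 and ETS letters close together and no gene starts on the other strand within 1000 bases. The stretch lies at chr11:58171601-58171649 (GRCm38.p6, plus strand, 5′ to 3′) and ends 14 bases before the start, with the ETS letters and then the NRF1 letters in capitals.

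Mrpl22 upstream: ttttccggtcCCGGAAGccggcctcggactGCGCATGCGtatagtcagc

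Most genes that work with the ribosomal proteins were not called either. Of 5 further mitochondrial ribosomal proteins with other symbols, none was called; Dap3, a GTP-binding small subunit protein, had 38.6 and 25.7 TPM, Aurkaip1 42.4 and 32.0 TPM and Ptcd3 29.6 and 23.6 TPM. Of 27 assembly factors none was called in the gene table and 1, Trmt61b, in the second file, and their median of 7.03 TPM was below that of the ribosomal proteins; Grsf1, an RNA-binding protein of mitochondrial RNA granules, was the highest with 36.2 and 28.2 TPM. Of 14 translation factors none was called. Tufm, the elongation factor that brings aminoacyl-tRNA to the ribosome, led them with 66.7 and 47.2 TPM.

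Of 17 mitochondrial aminoacyl-tRNA synthetases, Lars2 was called, with 2987 and 4918 counts (log2 ratio 1.01). Of 8 genes for mitochondrial transcription and messenger RNA handling, Tefm (124 and 222 counts, 1.13) and Mterf2 (44 and 74 counts, 1.03) were called. Of 8 regulators of mitochondrial genes, the coactivator Ppargc1b was called, with 280 and 648 counts (2.33 and 5.80 TPM), while its relative Pprc1, at 1732 and 709 counts, was lower in replicate 2 by a factor of 1.9998, just under the threshold. In the second file Lars2 and Ppargc1b were called too, Pprc1 passed at a log2 ratio of -1.004, and Tefm (0.96) and Mterf2 (0.89) were not called. The level of Lars2 differed widely between the estimates, at 23.2 and 34.8 TPM in the gene table and 132 and 280 TPM in the second file. For scale, the median of the members was 21.9 TPM in the gene table and 47.5 TPM in the second file. The reason for the Lars2 gap was not tested. Yy1 had 2880 and 2122 counts and Gabpa, the DNA-binding part of GABP, 1406 and 1384 counts, neither called. These calls stand beside the 6.86% called over all genes. With spike-in scaling every log2 ratio is lower by 0.89, which ends the calls of Lars2, Tefm, Mterf2 and Ppargc1b. The same shift takes other genes past a fold of 2 toward replicate 1, among them Trmt61b (-0.78 before the shift), Tufm (-0.20) and Yy1 (-0.15). Others, such as Gabpa (0.27), stay within it. Calls in these lists under that scaling were not counted here.

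The RNAs that meet these proteins in the ribosome come from mitochondrial DNA. The 2 mitochondrial ribosomal RNAs, mt-Rnr1 and mt-Rnr2, summed to 116405 TPM in replicate 1 and 80546 TPM in replicate 2; the removal of ribosomal RNA before sequencing limits what these levels say. Of the 13 mitochondrial messenger RNAs, 1 was called, mt-Co2, with 87.0 and 308 TPM, and this call was lost in the second file, where it had 1061 and 1174 TPM. In the gene table, 11 were higher in replicate 2, with a median log2 ratio of 0.31, a direction that spike-in scaling turns for all of them but mt-Co2. Over the members it was -0.01, and over the complex I and cytosolic ribosomal protein genes 0.12 and -0.17. These medians share the same 2 libraries and were not tested against each other.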

How the data were processed

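The 78 members and all gene lists were chosen with earlier results of these data known. The deposited descriptions of the files name mm10 and GENCODE M21 for all 3 tables of a library. Per the file headers, the gene table and its companion transcript table are laid out as RSEM writes them, with expected counts and TPM; the authors made them from reads aligned to the transcriptome. The second transcript file is laid out as kallisto writes it, per the file headers, with estimated counts and TPM made by the authors directly from the reads. TPM was deposited as scaled over all entries of a table. Which programs and versions were run is not given in the sources used here.

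Expected counts were rounded, and 26345 entries that name no gene (tRNA, spike-ins, phiX) were left out of library sizes; spike-ins took 0.843% and 1.50% of counts. Library sizes were scaled by TMM (edgeR 4.0.16 in R 4.3.3; factors 1.02 and 0.982). The exact binomial test and Benjamini-Hochberg adjustment ran in Python 3.11.15 with scipy 1.17.1, with 0.5 added to counts for log2 ratios. Intervals on folds are exact 95% Clopper-Pearson limits of a binomial model, so they take in counting error alone. Reads that carry no molecular identifier are not independent molecules, so even for counting error the limits can be too narrow. Alternatives included DESeq2 1.42.0 size factors, the second file, other filters, thresholds and pseudocounts, and each replicate left out of the levels. The procedure was run on simulated data with planted changes larger than the ratio of any member, so that run says nothing on smaller changes. Sequences were aligned with Biopython 1.88, and promoter windows came from RefSeq on GRCm38.p6.

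The text names the 8 highest and 8 lowest members by mean TPM, the 5 largest log2 ratios in each direction, the Mrps18 paralogs, Mrps30, Mrps36, stalk and tunnel proteins, the 5 members that differ most between tables, and members with a non-coding leading transcript. Of other lists it names called genes and up to 3 of the highest; copies, neighbours and motif examples were chosen after their values were seen.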

Additional observations from a re-analysis of the deposited data

How the results depend on the processing

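No paired analysis was possible because the 2 libraries form a single group. The median TPM of members, 21.9 by mean over the libraries, was 80.2 after rescaling over nuclear protein-coding genes, 47.5 in the second transcript file and 81.0 in that file after rescaling, the last setting chosen after seeing the data; leaving out each replicate gave 18.4 to 25.5. The SD of log2 TPM, 0.86, was 0.79 with a pseudocount of 1, 0.79 in the second file, 0.75 without Mrpl23 (chosen after seeing the data) and 0.86 to 0.88 with each replicate left out. The large over small subunit ratio, 0.99, was 1.04 in the second file, 0.98 with subunits taken from the symbols and 0.95 to 1.02 with each replicate left out. The number of members called stayed at 0 under DESeq2 size factors, total counts, TMM over nuclear protein-coding genes, both filters, the 1.5-fold threshold, the second file and the edgeR exact test, and was 24 with spike-in scaling, which moved the median log2 ratio of members from -0.01 to -0.90. DESeq2 size factors moved the median of all genes tested from 0.01 to -0.09 and that of members to -0.11. Spike-in scaling turned the direction of Mrpl34 (-0.38), Mrpl23 (-0.58), Mrps36 (-0.59), Mrpl27 (-0.62), Mrpl40 (-0.62) and Mrpl46 (-0.63); it scales each library by its spike-in counts, and whether RNA content differed was not tested. The median share of the leading transcript, 85.1%, was 82.5% in the second file and 85.8% to 87.8% with each replicate left out. Depth limits the fold of Mrpl23 most: its 95% interval ran from 0.87 to 1.76.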
